A study of Mus musculus with 200 samples.

Results

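Expression of 8 complement genes was examined in the mouse brain after closed-head injury (CHI), a single midline impact to the intact skull. They were found by gene symbol among the 56941 genes of the deposited count table: C1qa, C1qb, C1qc, C3, C4b, C3ar1, C5ar1 and Serping1. All 8 were found. Bulk RNA-seq covered 200 mice, of which 67 had sham surgery, anaesthesia and a scalp incision without impact, and the rest CHI, and brains were collected 9, 24 or 72 h later. The mice belonged to 4 strains, C57BL/6J (n = 61) and 3 strains labelled IL-1R1 gKO (n = 55), IL-1R1 eRestore (n = 50) and IL-1R1 nRestore (n = 34), each of which had its own sham mice. The labels do not spell out gKO, eRestore and nRestore, and no promoter, Cre line or cell type behind these strains is given in the sources used here. Ages ran from 3.3 to 7.67 months. CHI and sham groups numbered 15 and 6 mice at 9 h, 14 and 6 at 24 h and 14 and 6 at 72 h in C57BL/6J, and 13 and 6, 12 and 6 and 12 and 6 in IL-1R1 gKO. They numbered 12 and 6, 9 and 5 and 12 and 6 in IL-1R1 eRestore, and 6 and 4, 8 and 5 and 6 and 5 in IL-1R1 nRestore, where the 72 h groups were all male. Each mouse gave 1 library (for the C57BL/6J mice, from 1 hemisphere of the perfused brain), so the spread between mice is the error of every comparison.

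Complement is a cascade of plasma and tissue proteins that tags debris, microbes and synapses for removal. The classical route starts with C1q, which is assembled from the chains encoded by C1qa, C1qb and C1qc and, in the brain, is made mainly by microglia. It proceeds through C4, encoded in the mouse by C4b, to C3, the component on which all routes converge. Cleavage of C3 and C5 frees small peptides that signal through the receptors C3ar1 and C5ar1, carried mainly by myeloid cells, and Serping1 encodes the C1 inhibitor, which restrains the first step.

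Total counts ran from 14857985 to 57355676 per library, and every library correlated with the median of its own group at r of 0.977 or more on the log2 scale. Il1r1, the gene named in 3 of the strain labels, was not lower in those mice: in sham mice it averaged 4.98 ± 1.41 CPM (counts scaled to a common library size; SD, n = 18) in C57BL/6J, 10.2 ± 3.24 (n = 18) in IL-1R1 gKO, 8.22 ± 3.17 (n = 17) in IL-1R1 eRestore and 8.92 ± 1.54 (n = 14) in IL-1R1 nRestore. The edgeR test placed the 3 strains above C57BL/6J, with adjusted p-values of 2.61e-08, 2.2e-05 and 1.37e-05, so the whole-gene count was not reduced in any strain whose label names the receptor, which does not check a deletion of part of the gene, and the strains are called below only by their labels. In 2 mice the sex-linked genes Xist and Ddx3y went against the sex label, and results were recomputed without them. All CPM values below were scaled by the trimmed mean of M values (TMM).

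At 9 h the receptors rose most, C5ar1 by 3.22-fold and C3ar1 by 2.13-fold over all strains, C1qb rose by 1.15-fold, and no other of the 8 genes passed. At 72 h the C1q chains and C4b were 1.27-fold to 1.35-fold higher in CHI than in sham mice, and both receptors were still above sham. C3 and Serping1 passed the test at no time point. Log2 fold changes below were adjusted for sex and age and come from the quasi-likelihood test of edgeR, and a gene was called at an adjusted p (Benjamini-Hochberg over all genes tested) under 0.05. Over all strains 26.5%, 1.96% and 0.717% of all genes tested were called at 9, 24 and 72 h.

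**Figure D1:**
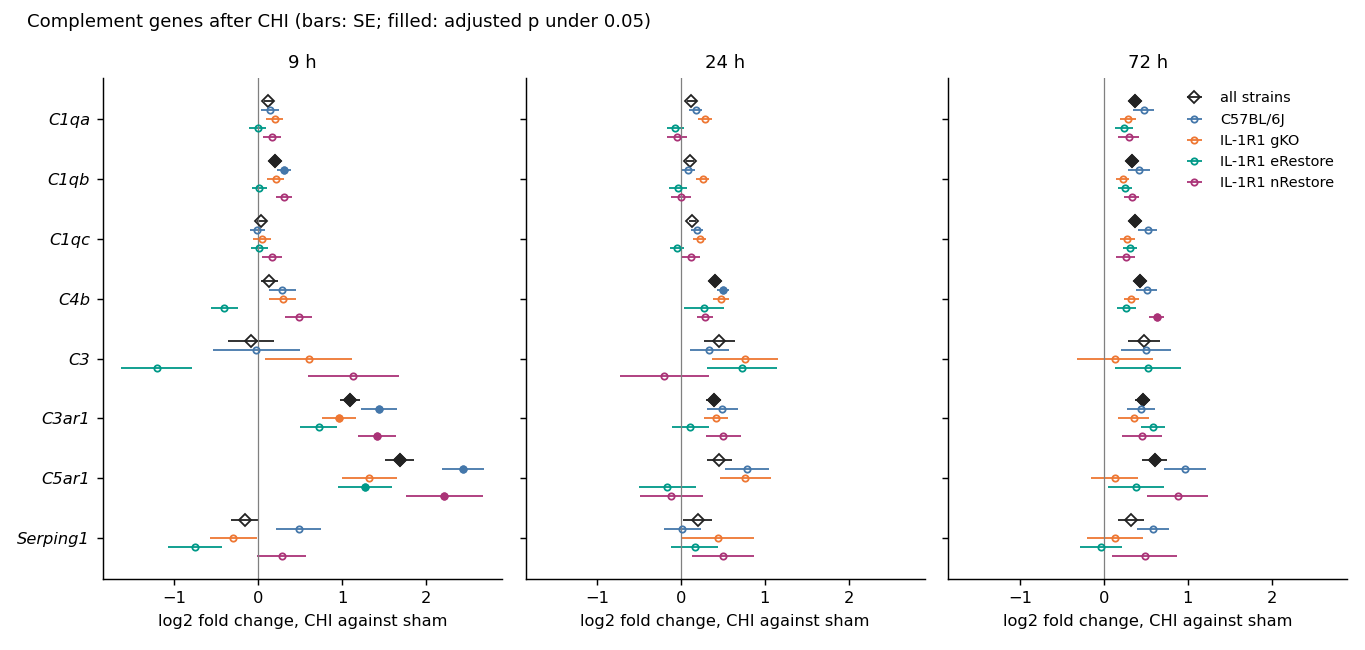
Log2 fold change (x axis, the same scale in the 3 panels) of CHI against sham mice for the 8 genes (rows) at 9, 24 and 72 h. Diamonds are all strains together and circles single strains, bars are standard errors, and filled symbols passed an adjusted p of 0.05. C3ar1 and C5ar1 lie farthest to the right at 9 h, and 6 of the 8 diamonds are filled at 72 h. Over all strains 26.5% of all genes tested were called at 9 h and 0.717% at 72 h.

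Levels per transcript length set the scale. In TPM, transcript abundance corrected for gene length, the mean level over 200 mice was 72.2 ± 14.2 (SD) for C1qa, 69.6 ± 11.8 for C1qb and 46.7 ± 8.88 for C1qc. C4b followed at 9.83 ± 3.63 TPM, Serping1 at 5.69 ± 3.23, C3ar1 at 1.65 ± 0.788, C5ar1 at 1.28 ± 1.2 and C3 at 0.344 ± 0.348. These SDs pool sham and CHI mice of all time points, and levels were not tested between genes. In the 67 sham mice C3ar1 averaged 1.13 ± 0.298 TPM and C5ar1 0.615 ± 0.304 TPM. The rarer genes rest on few reads. The median count per library was 628 for C1qa and 553 for C4b, but 68 for C3ar1, 20 for C5ar1 and 11 for C3, and 2 CHI mice had no C3 count at all.

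All 8 genes lie on the minus strand of GRCm39 and are protein coding. The C1q genes form a cluster on chromosome 4, with C1qb at 136606009 to 136613511, C1qc at 136616466 to 136620376 and C1qa at 136623223 to 136626161, a span of 20153 bases. C3 (57510964 to 57535155) and C4b (34947354 to 34962912) are on chromosome 17, C3ar1 (122823393 to 122833122) on chromosome 6, C5ar1 (15980668 to 15993465) on chromosome 7 and Serping1 (84595705 to 84620873) on chromosome 2. C4b has a near-identical copy, C4a, between 35028069 and 35042440 on chromosome 17. C4a took a median of 1.43% (range 0% to 7.36%, n = 200 libraries) of the counts of the pair, which counting could split differently between them. C1qb, C1qc, C3 and C4b overlap annotated genes on the other strand, and C3 also Mir6978 on its own strand.

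Promoter sequences are shown for 2 C1q chains, which followed each other from mouse to mouse, and for the anaphylatoxin receptors, which both rose at 9 h. The RefSeq promoter table of GRCm38.p6, which gives 300 bases around each gene start, held 5 of the 8 genes (C1qb, C1qc, C3, C3ar1 and C5ar1). Both strands were searched for GAGGAA, the core bound by the myeloid factor PU.1, TGANTCA (AP-1), TGACGTCA (CRE), TTCNNNGAA (GAS) and the ISRE and NF-kB consensus motifs. Capitals mark each match, and all 4 sequences are read from the minus strand:
C1qb, chr4:136886151-136886450: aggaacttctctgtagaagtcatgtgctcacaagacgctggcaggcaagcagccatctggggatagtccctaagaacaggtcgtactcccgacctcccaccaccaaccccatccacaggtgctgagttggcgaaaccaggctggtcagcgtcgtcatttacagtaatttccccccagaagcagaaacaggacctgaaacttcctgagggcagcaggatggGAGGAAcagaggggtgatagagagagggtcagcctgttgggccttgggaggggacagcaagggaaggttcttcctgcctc
C1qc, chr4:136892865-136893164: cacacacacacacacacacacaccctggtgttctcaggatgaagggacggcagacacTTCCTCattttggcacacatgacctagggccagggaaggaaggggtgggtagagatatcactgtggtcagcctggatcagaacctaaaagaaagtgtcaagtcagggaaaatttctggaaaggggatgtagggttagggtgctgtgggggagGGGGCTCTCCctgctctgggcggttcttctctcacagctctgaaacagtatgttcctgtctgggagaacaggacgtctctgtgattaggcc
C3ar1, chr6:122856108-122856407: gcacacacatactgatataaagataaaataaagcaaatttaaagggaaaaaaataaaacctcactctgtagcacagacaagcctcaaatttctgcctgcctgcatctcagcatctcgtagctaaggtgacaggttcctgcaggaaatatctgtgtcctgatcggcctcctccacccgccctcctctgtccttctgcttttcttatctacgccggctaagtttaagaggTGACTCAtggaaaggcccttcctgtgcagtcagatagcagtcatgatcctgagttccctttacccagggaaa
C5ar1, chr7:16259289-16259588: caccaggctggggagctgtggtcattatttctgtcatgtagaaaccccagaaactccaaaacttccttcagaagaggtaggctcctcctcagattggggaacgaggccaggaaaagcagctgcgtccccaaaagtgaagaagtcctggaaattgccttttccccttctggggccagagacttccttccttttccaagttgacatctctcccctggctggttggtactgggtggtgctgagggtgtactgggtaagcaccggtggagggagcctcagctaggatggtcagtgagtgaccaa
Counted from the gene start, GAGGAA stood at -30 in C1qb and, on the opposite strand, at -193 in C1qc, a motif held by 28.3% of the 32851 promoters in the table. The C1qc sequence also held the NF-kB consensus at -41 (8.46% of promoters). The C3ar1 sequence held TGANTCA at -22 (7.81% of promoters). None of the other letters searched was in these windows, and C5ar1 and C3 held none of the 6 motifs, whose shares for CRE, ISRE and GAS were 1.79%, 3.44% and 8.3%. These matches describe letters and were not tested for binding.

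C5ar1 encodes the receptor for the complement peptide C5a. In C57BL/6J mice at 9 h, sham values ran from 0.392 to 0.918 CPM (median 0.728, n = 6) and CHI values from 1.58 to 6.35 CPM (median 3.91, n = 15). Every CHI mouse lay above the highest sham mouse. The log2 fold change was 2.44 (SE 0.25, adjusted p = 3.91e-07).

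The other strains also had higher means in CHI mice. In IL-1R1 nRestore at 9 h, the 4 sham mice had 1.17, 0.767, 0.157 and 0.534 CPM of C5ar1, and the 6 CHI mice ran from 1.53 to 4.11 (median 2.02), with no overlap. The log2 fold change there was 2.22 (SE 0.46, adjusted p = 0.0477). In IL-1R1 eRestore, sham values ran from 0.468 to 1.34 (median 0.783, n = 6) and CHI values from 0.676 to 4.35 (median 1.71, n = 12). There 10 of 12 CHI mice exceeded all sham mice, and the log2 fold change was 1.28 (SE 0.32, adjusted p = 0.0204). In IL-1R1 gKO, 11 of 13 CHI mice (1.11 to 4.57, median 1.9) exceeded all 6 sham mice (0.451 to 1.31, median 0.826), and the log2 fold change of 1.33 (SE 0.33) did not pass (adjusted p = 0.101), although it was called in DESeq2 with gene-length offsets (adjusted p = 0.0106) or its own size factors (0.00775) and in 1 fit of all mice of the time point (0.0152). In IL-1R1 nRestore the call was lost without sham replicate 3 (log2 1.62, adjusted p = 0.306) or without sham replicate 4 (adjusted p = 0.124) and with the experiment in place of age (log2 1.76, adjusted p = 0.0602), and in IL-1R1 eRestore without sham replicate 1 or 2 (adjusted p = 0.07 and 0.0659).

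C3ar1 encodes the receptor for C3a. In C57BL/6J at 9 h, its level ran from 2.13 to 3.9 CPM in sham mice (median 2.71, n = 6) and from 4.56 to 13.3 CPM in CHI mice (median 6.97, n = 15). The groups did not overlap, and the log2 fold change was 1.44 (SE 0.21, adjusted p = 7.02e-05). In IL-1R1 nRestore the 4 sham mice had 2.02, 2.92, 2.83 and 1.82 CPM, and the 6 CHI mice 4.59 to 8.71 (median 5.53). These groups did not overlap either, with a log2 fold change of 1.42 (SE 0.23, adjusted p = 0.00948). In IL-1R1 gKO the log2 fold change was 0.97 (SE 0.20, adjusted p = 0.0437), with 6 of 13 CHI mice above all sham mice, among which 1 sham mouse reached 4.93 CPM. In IL-1R1 eRestore it was 0.72 (SE 0.22, adjusted p = 0.0554), with 7 of 12 CHI mice above all sham mice. That result passed in DESeq2 with gene-length offsets (adjusted p = 0.0229) or its own size factors (0.0153), in 1 fit of all mice of the time point (0.0331) and without sham replicate 3 (0.0333) or 6 (0.0355). The IL-1R1 gKO call was lost on leaving out any of sham replicates 1 to 5 (adjusted p of 0.108 to 0.18), and that in IL-1R1 nRestore on leaving out sham replicate 1 (adjusted p = 0.0536).

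**Figure D2:**
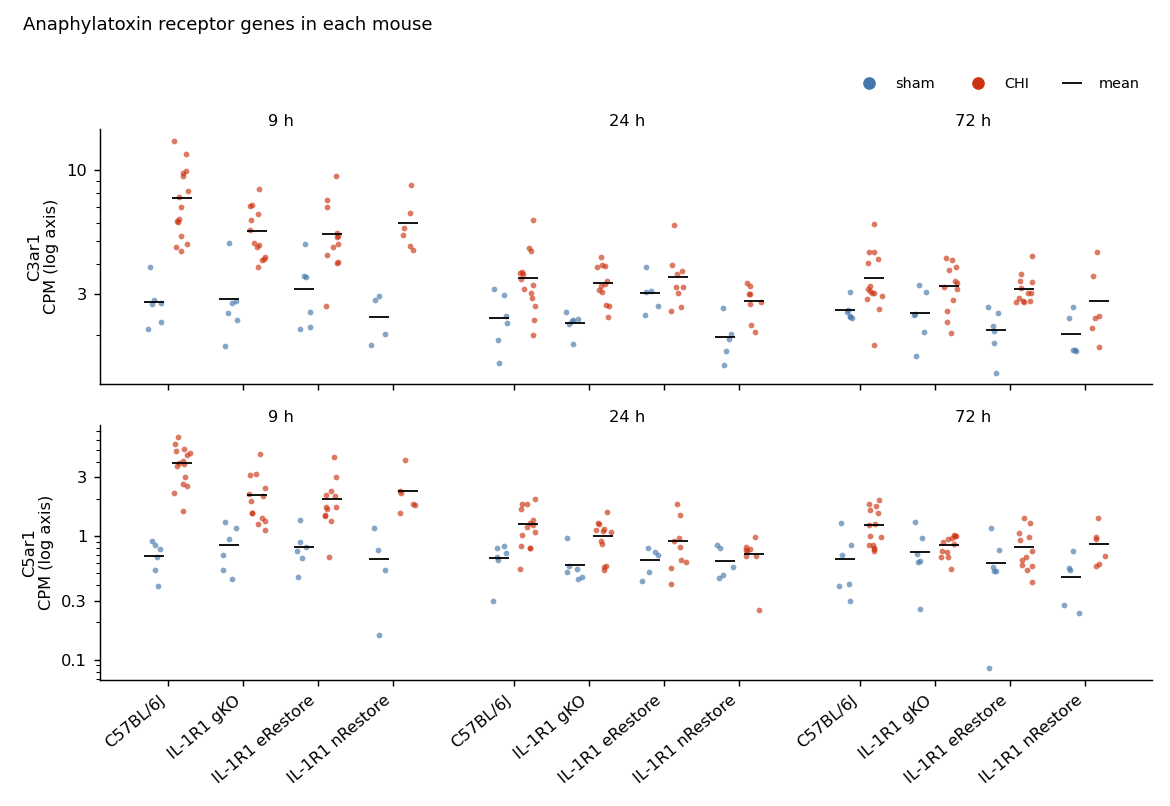
CPM (log axis) of C3ar1 and C5ar1 in each of the 200 mice, by time point and strain, with sham mice in blue, CHI mice in red and the group mean as a bar. At 9 h the red points of C57BL/6J and IL-1R1 nRestore lie above all of their blue points in both panels, and at 24 and 72 h the colours overlap in most groups.

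Over all strains at 9 h, C5ar1 had a log2 fold change of 1.69 (SE 0.18, adjusted p = 1.54e-11) and C3ar1 of 1.09 (SE 0.12, adjusted p = 6.74e-11). Of 46 CHI mice, 42 exceeded the highest sham mouse of their own strain for C5ar1 and 34 for C3ar1, and none fell under the lowest. Both genes passed within each of the 3 experiments of that time point. The log2 fold changes of C5ar1 were 1.58, 1.63 and 2.12 (adjusted p = 0.000304, 0.00241 and 0.00479), and those of C3ar1 0.97, 1.07 and 1.2 (adjusted p = 0.00386, 0.000788 and 0.00263). C1qb was the only other of the 8 genes called, with a log2 fold change of 0.20 (SE 0.05, adjusted p = 0.00102). It passed within the experiment TM-2-33 (0.34, adjusted p = 0.0364) and in neither of the other two (0.12 and 0.25, adjusted p = 0.355 and 0.0685). These 3 calls among 8 stand beside 26.5% of all 16657 genes called in the same comparison, so calls at 9 h were common in general.

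Within single strains at 9 h, 7 of 32 tests of the 8 genes passed, all for a higher level in CHI mice. They were 3 in C57BL/6J (C5ar1, C3ar1 and C1qb), where 14.1% of all genes were called, 1 in IL-1R1 gKO (0.199%), 1 in IL-1R1 eRestore (7.34%) and 2 in IL-1R1 nRestore (0.608%). The C1qb call in C57BL/6J (log2 0.30, SE 0.08, adjusted p = 0.015) was lost without sham replicate 1 or sham replicate 3 (adjusted p = 0.0512 and 0.054). The single-strain and all-strain comparisons share the same mice.

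Markers of myeloid cells were examined beside the receptors. Of the 10 neutrophil markers, 2 were abundant enough to be tested, Mmp9 and Csf3r, and neither was called at 9 h. The other markers were too rare to be tested, so they could not show a change. Ly6g had a median of 0 and a highest value of 0.0909 CPM over 200 libraries, while S100a8 and S100a9 reached 3.68 and 4.77 CPM in single mice. The summed level of the 10 markers had a median of 3.7 CPM in sham mice (2.97 to 4.96, n = 22) and of 3.82 CPM in CHI mice (2.27 to 20.2, n = 46). Mmp9 and Csf3r, with medians of 1.12 and 2.93 CPM over all mice, made up most of it. Of 8 monocyte markers, 3 were tested, none was higher and Lyz2 was lower (log2 -0.26), while Ly6c2 and Plac8 had medians of 0 and highest values of 0.273 and 0.379 CPM. Other genes of that list were abundant, such as Fn1 with a median of 43.8 CPM, and its sum ran from 51.3 to 100.8 CPM in sham mice (median 66.2) and from 53.9 to 112.5 CPM in CHI mice (median 77.2). Of 12 microglial markers, 7 fell at 9 h and none rose, among them P2ry12, a purine receptor of resting microglia (log2 -0.62), and the list's median was -0.22 beside -0.00621 over all genes. Their summed level ran from 307.9 to 523.5 CPM in sham mice (median 373.9) and from 219.6 to 461.7 in CHI mice (median 338.8). Of 12 markers of activated microglia, 10 were tested at 9 h and 2 were higher, Lgals3 (log2 1.51, adjusted p = 7.93e-08) and Spp1 (0.46, adjusted p = 0.0323). The sum of the 12 had a median of 1257 CPM in sham and 1189 CPM in CHI mice. Most of that sum was Apoe (median 1011 CPM over all mice), which was not called (log2 -0.06, adjusted p = 0.474), so it says little of the other markers. Of 8 border macrophage markers, 4 were tested and 1 was higher, Lyve1 (0.71, adjusted p = 0.00297), with sums of 2.99 to 17.5 CPM in sham mice (median 5.56) and 3.04 to 12.4 CPM in CHI mice (median 5.96). Over all genes 26.5% were called at 9 h. The part of myeloid cells in the receptor result was not tested. In bulk tissue, a change in the number of cells and a change in the RNA per cell cannot be told apart.

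The receptor response was smaller at the later time points. The change of the CHI effect between 9 and 24 h, averaged over the strains, was -1.28 for C5ar1 (95% interval -1.71 to -0.85, adjusted p = 3.93e-06) and -0.72 for C3ar1 (-1 to -0.43, adjusted p = 9.18e-05). Between 9 and 72 h it was -1.08 for C5ar1 (-1.51 to -0.66, adjusted p = 7.67e-05) and -0.65 for C3ar1 (-0.93 to -0.38, adjusted p = 0.000273). Over the same intervals 9.63% and 11.8% of 20111 genes were called. No gene of the 8 was called between 24 and 72 h, where 0.0249% of all genes were. The 9 h mice came from experiments of their own, so experiment and time point cannot be told apart in these changes, and, per the methods for the C57BL/6J mice, surgery was done in the morning, so the time of day of collection differed as well.

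The C1q chains were examined at 72 h, where all 3 were called over all strains. C1qc at 72 h in C57BL/6J ran from 19.1 to 24.1 CPM in sham mice (median 21.6, n = 6) and from 22.6 to 51.6 CPM in CHI mice (median 29.4, n = 14), with 13 of 14 CHI mice above all sham mice. C1qa there ran from 25.6 to 30.4 CPM (median 27) in sham mice and from 28.1 to 64.1 (median 35.9) in CHI mice, with 12 of 14 above. C1qb ran from 25.3 to 33.9 CPM (median 26.3) and from 26.3 to 63.5 (median 37), with 10 of 14 above. The same CHI mouse had the highest value of all 3 chains. The log2 fold changes in C57BL/6J were 0.52 (SE 0.12) for C1qc, 0.48 (SE 0.13) for C1qa and 0.42 (SE 0.13) for C1qb, and none passed (adjusted p = 0.158, 0.366 and 0.718), in a comparison where 0% of 16875 genes were called by edgeR and 869 had an unadjusted p under 0.05. DESeq2 with gene-length offsets called C1qc there (adjusted p = 0.0106) and DESeq2 with its own size factors called C1qa, C1qc and C4b, while 1 fit of all mice of the time point called the 3 chains and C4b (adjusted p of 0.00872 to 0.0466). The shares of all genes called in these other fits are not given here.

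Over all strains at 72 h, with 44 CHI and 23 sham mice, all 3 chains passed. The log2 fold change was 0.38 for C1qa (SE 0.07, adjusted p = 0.000142), 0.34 for C1qb (SE 0.06, adjusted p = 4.18e-05) and 0.38 for C1qc (SE 0.06, adjusted p = 1.07e-05). The CHI mean was higher in each of the 4 strains, by 1.24 to 1.43 times for C1qa, 1.2 to 1.38 times for C1qb and 1.2 to 1.48 times for C1qc. Of 44 CHI mice, 28, 32 and 34 exceeded the highest sham mouse of their strain for C1qa, C1qb and C1qc. Within the largest experiment, eIL-1-38, the 3 passed again (0.39, 0.35 and 0.40, adjusted p = 0.0461, 0.0168 and 0.0116). They did not pass within eIL-1-56 (0.09, 0.21 and 0.23) or nIL-1-60 (0.41, 0.36 and 0.33), which held 16 and 11 mice. For C1qc the CHI effect was larger at 72 h than at 9 h by 0.31 (95% interval 0.15 to 0.46, adjusted p = 0.00272), while the changes of C1qa (0.22, adjusted p = 0.0746) and C1qb (0.12, adjusted p = 0.315) did not pass.

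At 24 h none of the C1q chains was called. Over all strains their log2 fold changes were 0.13 (C1qa), 0.11 (C1qb) and 0.14 (C1qc), with adjusted p-values of 0.214, 0.276 and 0.074. All 3 passed when sex and age were left out of the fit (adjusted p = 0.0154, 0.0437 and 0.00453), and C1qc passed with the experiment in place of age (adjusted p = 0.0308) and without IL-1R1 eRestore (adjusted p = 0.0432). At 24 h the experiment NiL-1-21 held 18 CHI mice and 1 sham mouse and NiL-1-24 held 8 and 12, so surgery and experiment were unevenly mixed.

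**Figure D3:**
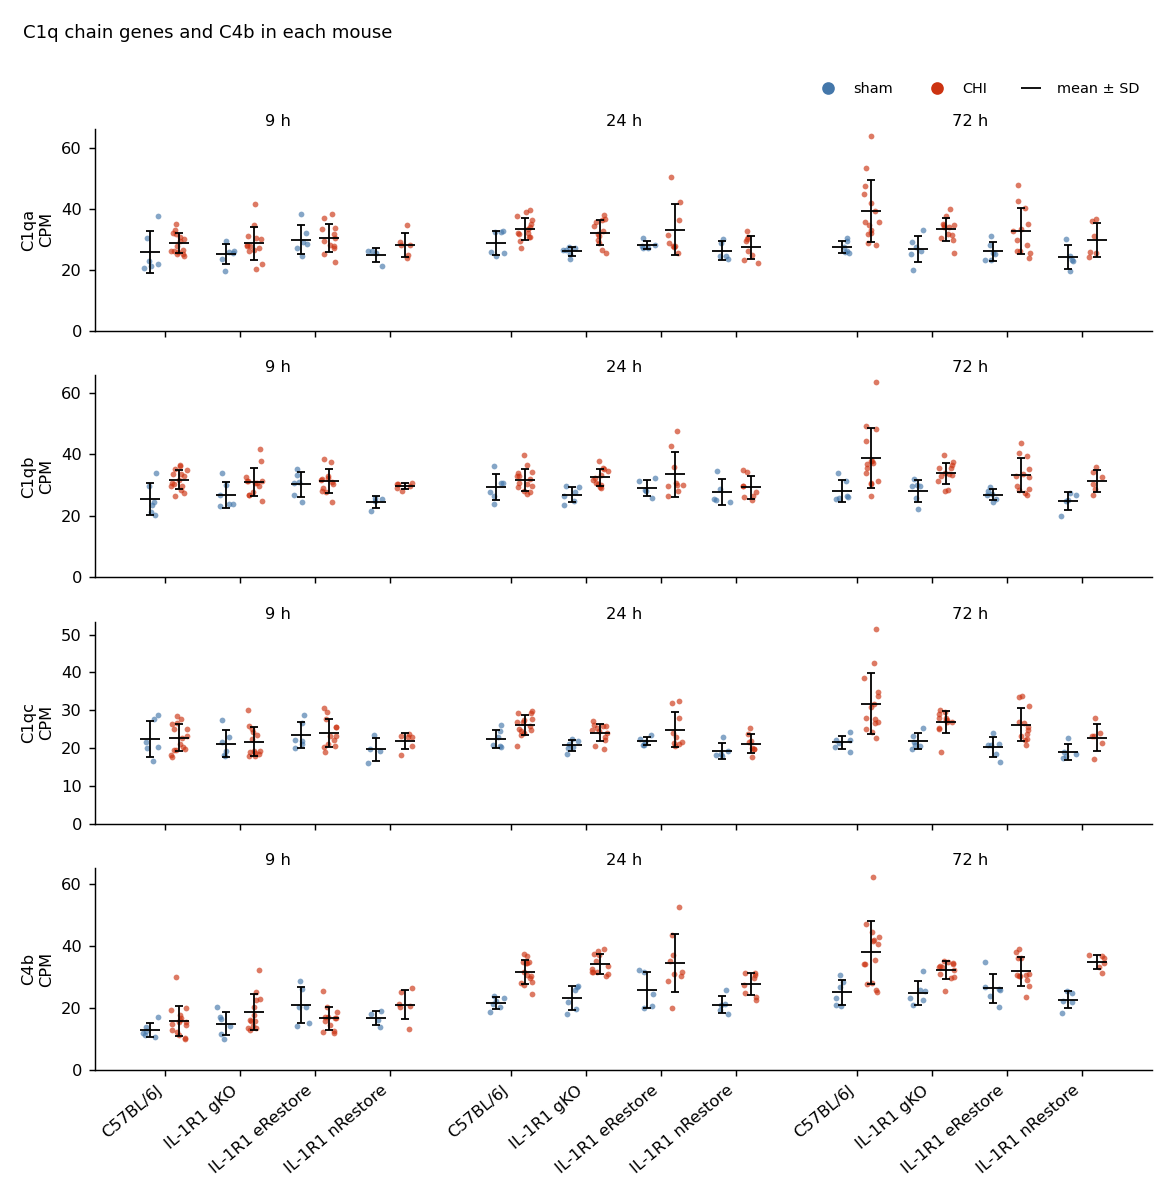
CPM (linear axis from 0) of C1qa, C1qb, C1qc and C4b in each mouse, by time point and strain, with sham mice in blue, CHI mice in red and bars for the mean and SD. The highest points of the C1q panels are CHI mice of C57BL/6J at 72 h (64.1, 63.5 and 51.6 CPM), and in the C4b panel the C57BL/6J and IL-1R1 gKO mice at 24 h and the IL-1R1 nRestore mice at 72 h do not overlap between surgeries.

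Microglial genes moved with the C1q chains at 72 h. Of the 12 microglial markers 8 were higher in CHI mice and none was lower, with a list median of 0.24 on the log2 scale beside -0.00353 over all genes tested. Their summed level had a median of 371.9 CPM in sham mice (335.4 to 442.3, n = 23) and of 437.8 CPM in CHI mice (354.7 to 655.4, n = 44). Of 12 markers of activated microglia, 11 were tested and 8 were higher, such as Cd68, a lysosomal protein of phagocytes (log2 0.61, adjusted p = 4.86e-07). Itgax was among the 8, near the floor at means of 0.22 CPM in sham and 0.596 CPM in CHI mice. It was tested over all strains at 72 h only, and the CHI mice may have carried it past the count filter. Its call is therefore weak support, and the same gene is counted again among the complement genes below. Over all genes 0.717% were called. The part of the microglial shift in the C1q result was not tested. Across mice, after subtraction of group means, the values of each chain followed the others most closely, with Pearson r of 0.83 for C1qa and C1qb, 0.79 for C1qa and C1qc and 0.76 for C1qb and C1qc (200 mice, 16058 genes ranked). Among the next in likeness were Rpl13, Ctss and Rpsa for C1qa (r of 0.71 to 0.73), Gstm1 and Fcgr3 for C1qb (0.69 each) and Gpr37l1 and Ctsd for C1qc (0.69 and 0.67).

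C4b encodes the mouse C4 that C1 cleaves. It rose at 24 h in C57BL/6J, where sham values ran from 18.8 to 24 CPM (median 21.8, n = 6) and CHI values from 24.4 to 37.6 CPM (median 31.1, n = 14). The groups did not overlap. The log2 fold change was 0.50 (SE 0.07, adjusted p = 0.000218), the 1 call among the 32 tests of these genes within strains at 24 h, and 0.404% of all genes were called in that strain. In IL-1R1 gKO the groups also did not overlap, with sham values of 18.2 to 27.1 CPM (median 23.9, n = 6) and CHI values of 30.2 to 39.2 CPM (median 33.2, n = 12). These CPM values were not adjusted for age or experiment, which were unevenly mixed with surgery. The CHI mice were 4.5 to 7.4 months old and came from 3 experiments, the sham mice 4.5 to 5.3 months old and from 2. The log2 fold change in IL-1R1 gKO was 0.48 (SE 0.09, adjusted p = 0.0566), and it passed under 5 alternatives that kept all mice, such as DESeq2 with gene-length offsets (0.42, adjusted p = 0.0414). In IL-1R1 eRestore and IL-1R1 nRestore it was 0.27 and 0.28 and did not pass (adjusted p = 0.786 and 0.955).

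Few genes were called in the 3 IL-1R1 strains at 24 h in general. The share was 0.0059% in IL-1R1 gKO, with 1502 genes at an unadjusted p under 0.05, and 0% in IL-1R1 eRestore and IL-1R1 nRestore, with 1494 and 740 such genes. Over all strains C4b had a log2 fold change of 0.41 at 24 h (SE 0.06, adjusted p = 3.6e-05), and 35 of 43 CHI mice exceeded the highest sham mouse of their strain. C3ar1 was also called there (0.39, SE 0.09, adjusted p = 0.0138), making 2 calls of 8 beside 1.96% of all genes. The C3ar1 call was lost without C57BL/6J (adjusted p = 0.138), IL-1R1 gKO (0.139) or IL-1R1 nRestore (0.0501). Within the experiments with more than 1 sham mouse, C4b had a log2 fold change of 0.41 in each, with adjusted p = 0.00388 in eIL-1-38 and 0.291 in NiL-1-24.

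At 72 h C4b was called over all strains (0.44, SE 0.06, adjusted p = 2.95e-06). Within strains it was called in IL-1R1 nRestore, where the 5 sham mice had 22.3, 25.5, 24.8, 22 and 18.5 CPM and the 6 CHI mice ran from 31.4 to 37 (median 35.4). Those groups did not overlap, the log2 fold change was 0.63 (SE 0.09, adjusted p = 0.0161), and 0.0121% of genes were called. Leaving out sham replicate 1 or 4 ended this call (adjusted p = 0.123 and 0.0898), as did 1 fit of all mice of the time point (0.65, adjusted p = 0.183). In the other strains the log2 fold changes of C4b were 0.51 (C57BL/6J), 0.33 (IL-1R1 gKO) and 0.27 (IL-1R1 eRestore), and none passed (adjusted p = 0.261, 1 and 0.858). In IL-1R1 gKO and IL-1R1 eRestore 0% and 0.00605% of all genes were called at 72 h, with 376 and 943 genes at an unadjusted p under 0.05. Within experiments the log2 fold change of C4b was 0.32 (eIL-1-38, adjusted p = 0.09), 0.51 (eIL-1-56, adjusted p = 0.0834) and 0.56 (nIL-1-60, adjusted p = 0.00332).

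**Figure D4:**
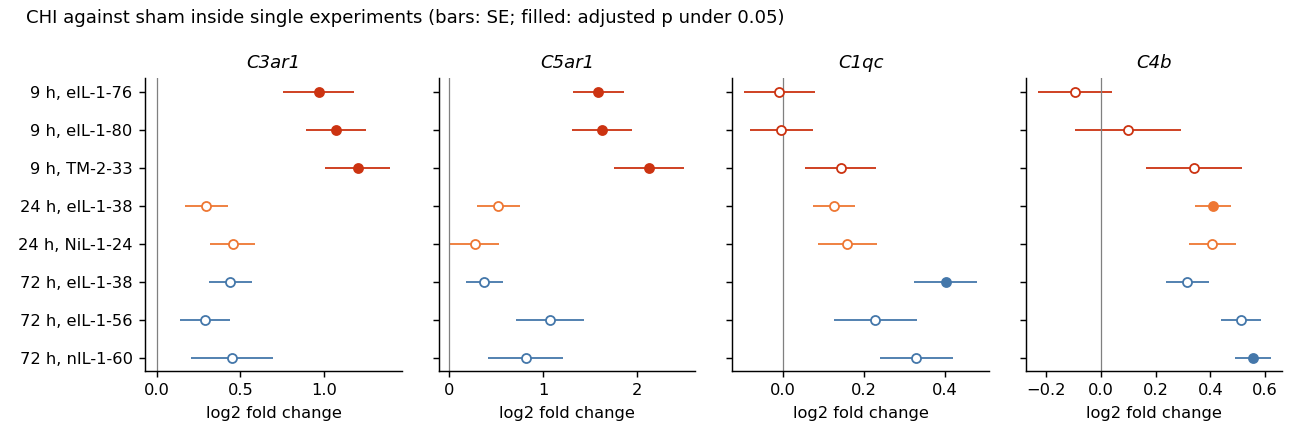
Log2 fold change of CHI against sham (x axes, each with its own scale) for C3ar1, C5ar1, C1qc and C4b within each experiment that could be fitted alone (rows, red 9 h, orange 24 h, blue 72 h). Bars are standard errors and filled points passed an adjusted p of 0.05; the receptors pass in all 3 experiments of 9 h, and C1qc and C4b lie right of 0 in every experiment of 24 and 72 h.

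The level of C4b in sham mice itself differed between the time points, with 12.9 ± 2.34 CPM at 9 h, 21.7 ± 1.95 at 24 h and 25.1 ± 4.07 at 72 h in C57BL/6J (SD, n = 6 each), which was not tested and coincides with a change of experiments. Its CHI effect was larger at 72 h than at 9 h by 0.31 (95% interval 0.10 to 0.52, adjusted p = 0.0401), a call lost with no filter on low counts (adjusted p = 0.0707) and in DESeq2 with gene-length offsets (0.0544). At 9 h the effect of C4b had a different sign in IL-1R1 eRestore (log2 -0.40, adjusted p = 0.121) from that in the other strains (0.29 to 0.48), and it did not pass over all strains (0.13, adjusted p = 0.35) unless IL-1R1 eRestore was left out (0.32, adjusted p = 0.028). The genes that followed C4b most closely from mouse to mouse were Gfap, the intermediate filament of astrocytes (r = 0.64), A2m (0.49), Zc3hav1 (0.46), C3 (0.46) and Plce1 (0.45). Of 12 markers of reactive astrocytes, 9 were higher at 9 h, 4 of 11 tested at 24 h and 4 of 9 tested at 72 h, none was lower, and Gfap changed by 0.78, 0.49 and 0.69 at the 3 time points. Over all genes 26.5%, 1.96% and 0.717% were called at these times. Among those higher at 9 h, Lcn2, Timp1 and Steap4 lay near the floor, with medians of 0.104, 0.306 and 0.37 CPM over all mice. Over all strains Lcn2 was abundant enough to be tested at 9 h only, and Timp1 and Steap4 at 9 and 24 h only. The CHI mice, where they were higher, may have carried them past the count filter, so their calls are weak support. The summed level of the reactive astrocyte list ran from 142.7 to 294.6 CPM in sham and 218 to 640 CPM in CHI mice at 9 h, from 181.9 to 345.1 and 216.4 to 552.4 CPM at 24 h, and from 169.4 to 275.7 and 227.9 to 698.6 CPM at 72 h. Gfap, with a median of 207.5 CPM over all mice, made up most of that sum. The part of these markers in the C4b result was not tested.

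Over all strains at 72 h, 6 of the 8 genes were called, all higher in CHI mice, beside 0.717% of all genes. Besides the C1q chains and C4b these were C3ar1 (0.47, SE 0.09, adjusted p = 0.000604) and C5ar1 (0.61, SE 0.15, adjusted p = 0.0309). The median log2 fold change of the 8 genes was 0.41, beside -0.00353 over all genes tested. The C5ar1 call was lost with no filter on low counts (adjusted p = 0.0519) and on leaving out C57BL/6J (0.688), IL-1R1 eRestore (0.108) or IL-1R1 nRestore (0.2), and the C3ar1 call on leaving out IL-1R1 eRestore (0.0503). Within experiments neither receptor passed, with log2 fold changes of 0.29 to 0.45 for C3ar1 and 0.38 to 1.07 for C5ar1.

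C3 was the rarest of the genes, which limited what could be seen. In C57BL/6J its mean was 0.46 ± 0.242 CPM in sham and 0.429 ± 0.362 CPM in CHI mice at 9 h, 0.654 ± 0.191 and 0.88 ± 0.241 at 24 h, and 0.508 ± 0.14 and 0.778 ± 0.334 at 72 h (SD). Over all strains the log2 fold change was -0.08 at 9 h (95% interval -0.63 to 0.46), 0.46 at 24 h (0.09 to 0.82) and 0.48 at 72 h (0.09 to 0.87). None passed over all genes (adjusted p = 0.857, 0.199 and 0.474), and in IL-1R1 nRestore at 72 h the counts were too low for testing. In IL-1R1 eRestore at 9 h, C3 had a log2 fold change of -1.21 (SE 0.42, adjusted p = 0.0813), which passed without sham replicate 6 (-1.43, adjusted p = 0.0306), and the other 3 strains gave -0.02 to 1.13. Its nearest genes were C4b (r = 0.46), Plce1 (0.43), Itpkb (0.39), Doc2b (0.38) and Six3 (0.38).

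Serping1 passed in no comparison of CHI with sham when all mice were kept, and in C57BL/6J at 9 h it passed without sham replicate 4 (log2 0.85, adjusted p = 0.0243). Over all strains its log2 fold change was -0.16 at 9 h (95% interval -0.48 to 0.17, adjusted p = 0.528), 0.20 at 24 h (-0.14 to 0.55, adjusted p = 0.632) and 0.33 at 72 h (0.02 to 0.64, adjusted p = 0.599). Single mice varied widely, from 0.721 to 9.26 CPM in sham mice (median 3.17, n = 67) and from 1.02 to 11 CPM in CHI mice (median 3.84). The genes that followed it most closely were Ptgds, Colec12, Fmod, Slc6a20a and Islr (r of 0.80 to 0.83), of which Ptgds and Islr were on the list of meningeal fibroblast markers. The summed level of those 10 markers ran from 110.7 to 708.8 CPM in sham mice and 112.3 to 453 CPM in CHI mice at 9 h, and reached 1185 and 994.9 CPM at 72 h. Ptgds made up most of that sum, with a median of 334.7 CPM over all mice, beside 20.1 CPM for the next marker, Igfbp2. At 9 h 5 of the 10 were lower in CHI mice and 1 was higher, and all 8 choroid plexus markers were lower (Ttr fell by 2.78 on the log2 scale), from sums that ran from 11.2 to 3730 CPM in sham mice and from 5.38 to 1723 CPM in CHI mice. Over all genes 26.5% were called at 9 h. The part of meningeal and choroid plexus tissue in the Serping1 values was not tested.

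**Figure D5:**
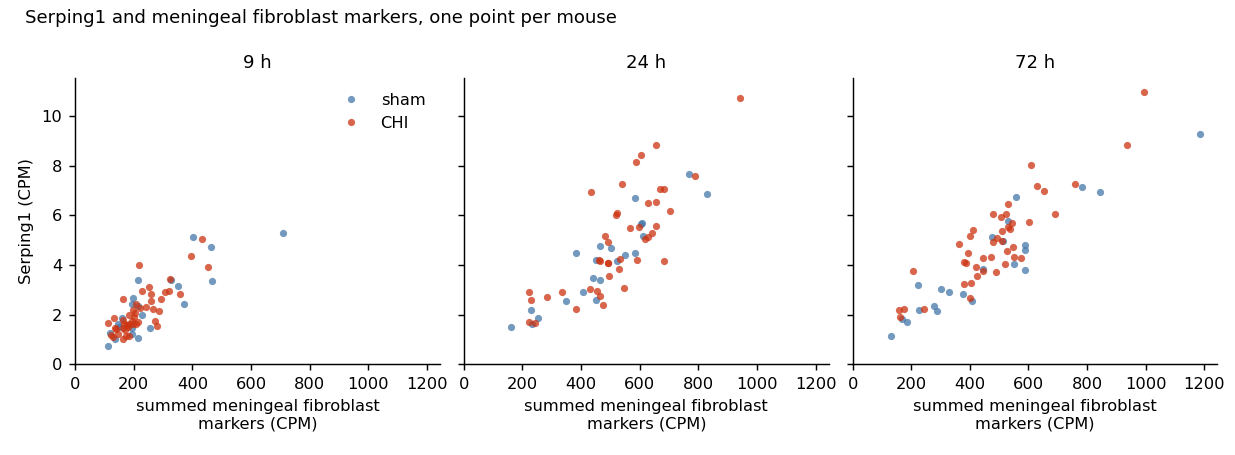
CPM of Serping1 (y axis) against the summed CPM of 10 meningeal fibroblast markers (x axis), with 1 point per mouse, sham in blue and CHI in red, at 9, 24 and 72 h. The points rise together in each panel, the colours are mixed, and the largest marker sum, 1185 CPM, is that of a sham mouse at 72 h. Ptgds, the gene that followed Serping1 most closely, makes up most of the sum, so the rise is no separate evidence for the other markers.

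The size of the CHI effect was next compared between strains. None of the 72 tests of an IL-1R1 strain's effect minus that of C57BL/6J passed for these 8 genes, 24 at each time point, and few passed for any gene. At 9 h the shares called were 0.00534%, 0.0107% and 0% of 18741 genes for IL-1R1 nRestore, IL-1R1 eRestore and IL-1R1 gKO, at 24 h 0%, 0.0108% and 0.00541%, and at 72 h 0.00543%, 0% and 0%. Unadjusted p-values under 0.05 were found in 6, 1 and 0 of the 24 tests. At 9 h the effect on C5ar1 differed by -1.10 (95% interval -1.96 to -0.24) in IL-1R1 gKO, by -1.21 (-2.07 to -0.35) in IL-1R1 eRestore and by -0.64 (-1.66 to 0.37) in IL-1R1 nRestore, with adjusted p-values of 0.618, 0.333 and 0.985. That of Serping1 differed by -1.18 (-2.01 to -0.36) in IL-1R1 eRestore (adjusted p = 0.318). For the C1q chains at 72 h the differences ran from -0.29 to -0.12, with intervals that all held 0. The 3 strain contrasts of a time point share the same C57BL/6J mice.

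Among sham mice, 2 of 24 tests against C57BL/6J passed. C4b was higher in IL-1R1 eRestore (log2 0.34, 95% interval 0.16 to 0.53, adjusted p = 0.0147) and C1qc was lower in IL-1R1 nRestore (-0.19, -0.32 to -0.06, adjusted p = 0.0363). The C1qc call was lost with the experiment in place of age (-0.12, adjusted p = 0.506) and with no filter on low counts (-0.19, adjusted p = 0.0714). Over all genes 13.5%, 4.65% and 4.82% were called in IL-1R1 nRestore, IL-1R1 eRestore and IL-1R1 gKO.

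Sex did not separate these genes beyond the threshold. Over all mice, 0 of 8 were called between female and male mice by edgeR (0.41% of all genes), and 2 had an unadjusted p under 0.05, C5ar1 (log2 0.26, 95% interval 0.09 to 0.43, adjusted p = 0.19) and C3ar1 (0.15, 0.04 to 0.27, adjusted p = 0.283). The CHI effect in female minus that in male mice passed in 0 of 24 tests, none of which had an unadjusted p under 0.05, beside 0%, 0% and 0.00565% of all genes at 9, 24 and 72 h.

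Of 50 other complement genes, 29 were abundant enough to be tested over all strains. At 9 h 4 were higher and 7 lower, beside 26.5% of all genes called, with a median log2 fold change of -0.07. The 6 with the smallest p-values were Colec11, a lectin that starts the lectin route (log2 1.13, adjusted p = 7.12e-06), Itgam, the alpha chain of complement receptor CR3 (-0.39, adjusted p = 2.79e-05), Sez6l (0.20, adjusted p = 0.000383), C1ra, a protease of the C1 complex (0.52, adjusted p = 0.000384), Susd4 (0.13, adjusted p = 0.000418) and Colec12, a scavenger receptor of the collectin family (-0.42, adjusted p = 0.00183). Colec11 lay near the floor, at 0.244 ± 0.138 CPM in sham and 0.56 ± 0.225 CPM in CHI mice (SD). Over all strains it was abundant enough to be tested at 9 h only. The CHI mice, where it was higher, may have carried it past the count filter, so its call is weak support. At 24 h 0 of 29 passed in edgeR, 6 had an unadjusted p under 0.05, and the smallest adjusted p was 0.154, of Itgb2.

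At 72 h 3 of 29 were higher and none lower, beside 0.717% of all genes called, and all 3 encode chains of the integrin complement receptors CR3 and CR4. Itgax, the alpha chain of CR4, averaged 0.22 ± 0.221 CPM in sham mice (SD, n = 23) and 0.596 ± 0.273 CPM in CHI mice (n = 44), with a log2 fold change of 1.36 (SE 0.23, adjusted p = 6.94e-05). Itgax lay near the floor, with a median of 0.319 CPM over 200 libraries and no count in 3 of them. Over all strains it was abundant enough to be tested at 72 h only. The CHI mice, where it was higher, may have carried it past the count filter, so its call is weak support. Itgb2, the beta chain shared by CR3 and CR4, averaged 5.15 ± 0.686 and 6.82 ± 1.56 CPM (log2 0.37, SE 0.06, adjusted p = 0.000121). Itgam averaged 27.4 ± 3.04 and 31.9 ± 3.9 CPM (log2 0.22, SE 0.04, adjusted p = 0.00191), after the lower level at 9 h. By group, 5 of 8 tested receptor genes, C3ar1 and C5ar1 included, were higher at 72 h, 4 of 11 genes that start the classical and lectin routes, all of them among the 8 genes above, 0 of 2 of the alternative and terminal routes and 0 of 16 regulators.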

How the data were processed

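Brains of 200 mice were profiled by bulk RNA-seq (poly(A)-selected libraries, as stated for the C57BL/6J mice). The authors aligned reads to GRCm39 with STAR and deposited gene tables of estimated counts from Salmon and of TPM (transcript abundance corrected for length), which were used only to compare levels between genes and to derive gene lengths. Estimated counts were rounded to whole numbers here. Groups came from the sample labels, and the 2 surgeries were compared within strain and over all strains. A gene was tested if it reached 10 counts in a number of mice equal to the size of the smallest group compared, in edgeR 4.0.16 (R 4.3.3; TMM factors, robust quasi-likelihood F test), adjusting for sex and age, and p-values were Benjamini-Hochberg adjusted over all genes tested, with a threshold of 0.05. The study's own test, DESeq2 with gene-length offsets (version 1.42.0 here), sex and age, was run as an alternative, and the script was tested on simulated data. Standard errors are the log2 fold change divided by the square root of F, and intervals use the residual degrees of freedom and are not adjusted for the number of tests. The 8 genes were named everywhere. Of other complement genes, the 6 with the smallest p among those called were named. Other genes named for a marker list were chosen after their values were seen. The genes, lists and tests were chosen with earlier results of these data known. Total counts ran from 14857985 to 57355676. Alternatives were other size factors, no filter, other covariates, 1 fit per time point, single experiments, strains or sham mice left out and, added after the data were seen, the 2 mice that went against their sex label left out. No columns of per-sample values were left unmapped. The genes most like each member were ranked by Pearson r across mice after subtraction of group means, and 1 gene of that ranking is not reported here.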

Additional observations from a re-analysis of the deposited data

Results flagged for a closer look

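The CHI effect differed between time points for 4 of the 8 genes. Between 9 and 24 h it changed by -0.72 for C3ar1 and -1.28 for C5ar1 on the log2 scale, and between 9 and 72 h by -0.65 for C3ar1, -1.08 for C5ar1, 0.31 for C1qc and 0.31 for C4b. Over the same intervals 9.63% and 11.8% of 20111 genes were called. The 9 h mice came from experiments of their own, so experiment and time point cannot be told apart. The C4b call was lost with no filter on low counts and in DESeq2 with gene-length offsets. Single mice stood apart from the others of their group, by Dixon's test at the 95% level, in 8 of 128 tests, beside 6.4 that chance gives at 1 in 20. For C3ar1 these were a C57BL/6J sham mouse at 72 h (3.04 CPM), an IL-1R1 eRestore CHI mouse at 24 h (5.89) and an IL-1R1 gKO sham mouse at 9 h (4.93). For C5ar1 they were a C57BL/6J sham mouse (0.298 CPM), an IL-1R1 gKO sham mouse (0.957) and an IL-1R1 nRestore CHI mouse (0.251), all at 24 h, and an IL-1R1 nRestore CHI mouse at 9 h (4.11). For C1qc it was an IL-1R1 nRestore sham mouse at 72 h (22.6 CPM).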

How the results depend on the processing

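Of 1570 alternatives to single-gene results, 1427 kept their direction and their side of the threshold, 47 lost a call, 32 gained one and 64 changed sign. The calls of C3ar1 and C5ar1 over all strains at 9 h held in each alternative run. No paired analysis was possible because the labels give no replicate numbers that tie mice across groups. Within strains at 24 h, 2 calls were made in place of 1 with no filter, in both DESeq2 fits, with no covariates and in 1 fit per time point. Over all strains at 24 h, 6 calls were made in place of 2 with no covariates, 1 on leaving out C57BL/6J, IL-1R1 gKO or IL-1R1 nRestore and in eIL-1-38 alone, and 0 in NiL-1-24 alone. Within strains at 72 h, 2 calls were made in place of 1 in DESeq2 with gene-length offsets, and 4 in DESeq2 with its own size factors and in 1 fit per time point. Over all strains at 72 h, 3, 0 and 1 calls were made in place of 6 in eIL-1-38, eIL-1-56 and nIL-1-60 alone. In sham mice, 1 call was made in place of 2 with no filter and with the experiment in place of age. On leaving out 1 sham mouse each, calls within strains ranged from 1 to 2 at 24 h and 0 to 1 at 72 h. C4b gained its call in IL-1R1 gKO at 24 h without sham replicate 1 (edgeR adjusted p = 0.0337) and lost it in IL-1R1 nRestore at 72 h without sham replicate 1 or 4 (adjusted p = 0.123 and 0.0898). Single experiments and strains left out hold fewer mice; for the other alternatives the cause was not tested.

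Every sign change was of a log2 fold change that did not pass. In DESeq2 with gene-length offsets at 24 h they were Serping1 in C57BL/6J (-0.0152), C5ar1 in IL-1R1 eRestore (0.436) and C3 (0.11) and C5ar1 (0.0793) in IL-1R1 nRestore. With the experiment in place of age they were, at 24 h, Serping1 in C57BL/6J (-0.087) and IL-1R1 gKO (-0.0475), C5ar1 in IL-1R1 eRestore (0.0316) and C1qb in IL-1R1 nRestore (-0.0192), and in IL-1R1 eRestore Serping1 at 72 h (0.1004) and C1qa (0.000852) and C1qc (-0.00982) at 9 h. With no covariates they were, at 24 h, Serping1 in C57BL/6J (-0.0459), C1qa (0.228), C1qb (0.194), C1qc (0.18) and C5ar1 (0.514) in IL-1R1 eRestore and C1qa (0.0565) and C5ar1 (0.178) in IL-1R1 nRestore, and in IL-1R1 eRestore Serping1 at 72 h (0.0794) and C1qa at 9 h (0.0065). In 1 fit per time point they were Serping1 (-0.0524) at 24 h and C1qc (0.00129) at 9 h in C57BL/6J and, in IL-1R1 eRestore, C1qa (0.0836), C1qb (0.0989), C1qc (0.0899) and C5ar1 (0.193) at 24 h, Serping1 (0.0652) at 72 h and C1qa (0.0127) at 9 h. Over all strains they were C3 (-0.0269) and Serping1 (-0.332) at 24 h in NiL-1-24 alone and, at 9 h, C1qc (-0.00906) and C4b (-0.0961) in eIL-1-76 alone, C1qc (-0.00452) in eIL-1-80 alone, C3 (0.643) and Serping1 (0.267) in TM-2-33 alone, and C3 (0.321) and Serping1 (0.0876) without IL-1R1 eRestore. Without the 2 mice that went against their sex label, C1qb in IL-1R1 eRestore at 24 h was 0.00524, and no call was lost or gained. On leaving out 1 sham mouse each, the range held 0 in C57BL/6J for Serping1 at 24 h (-0.0843 to 0.206) and for C1qc (-0.106 to 0.0599) and C3 (-0.226 to 0.199) at 9 h. In IL-1R1 eRestore it did so for C1qb at 24 h (-0.111 to 0.00524), Serping1 at 72 h (-0.181 to 0.174) and C1qa (-0.0492 to 0.0637), C1qb (-0.0504 to 0.0634) and C1qc (-0.0426 to 0.0769) at 9 h. In IL-1R1 gKO at 72 h it did so for C3 (-0.128 to 0.722), C5ar1 (-0.0732 to 0.464) and Serping1 (-0.0422 to 0.353), and in IL-1R1 nRestore at 24 h for C1qa (-0.195 to 0.0372) and C1qb (-0.119 to 0.162).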
